A study of Caenorhabditis elegans with 19 samples.

Results

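Hox genes encode homeodomain transcription factors that give cells along the head-to-tail axis their regional identity. Caenorhabditis elegans has a dispersed cluster of 6 of them, ceh-13, lin-39, mab-5, egl-5, nob-1 and php-3, and these were taken by gene name from the 21975 genes of each table. They are named here from anterior to posterior in relation to the fly genes: ceh-13 is the labial-type gene, lin-39 acts in the mid-body, mab-5 in the posterior body, and egl-5, nob-1 and php-3 are the Abdominal-B-type genes of the tail. In the larva, Hox proteins direct the migration of neuroblasts, the fates of vulval precursor cells and the patterning of the seam and the male tail. They bind DNA together with homeodomain cofactors of the PBC and MEIS types, and their expression is set by Wnt and Ras signals and held by Polycomb-type repressors and trithorax-type activators.

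Poly(A) RNA from whole worm populations was sequenced, and levels were deposited as FPKM, a measure of fragments corrected for transcript length and library size. The 3 strains were the N2 Bristol wild type, WM458, which carries xol-1 (ne4472), and EKM198, which carries the same xol-1 allele and sex-1 (gk829), so both mutant strains carried the xol-1 allele; EKM198 is here called the double mutant (xol-1 sex-1 in the plots). L3 larvae had fed for 24 h, and each of the 3 strains gave 4 samples. Only the double mutant was used at other stages, as L1 larvae fed for 3 h (n = 4) and as early embryos from bleached young adults (n = 3). xol-1 is the master switch of worm sex determination and sex-1 encodes a nuclear receptor that represses it. Replicates are samples that the labels number, with no statement on separate cultures, so p-values measure the spread between these samples only. In whole worms, fewer cells of a type and less RNA per cell cannot be told apart.

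All 6 genes lie on chromosome III. In the WBcel235 annotation lin-39 (7528641 to 7536632, minus strand) and ceh-13 (7555660 to 7558041, plus strand) are neighbours 19.03 kb apart with no other gene of the table between them. A second pair, mab-5 (7776835 to 7783454, minus strand) and egl-5 (7814374 to 7817141, plus strand), is 30.92 kb apart, with cyk-7 between them. The third pair, php-3 (12074218 to 12077556) and nob-1 (12077793 to 12084316), both on the minus strand, is separated by only 236 bases. The gap between egl-5 and php-3 is 4257 kb and holds 930 genes of the table. nob-1 and php-3 are related neighbours, and fragments shared by both could be divided between them by the counting, so their separate levels are less certain than those of the other members. lin-39 overlaps 2 non-coding RNA genes and egl-5 overlaps 1, none of which is in the tables; whether the counting used strand is not given in the sources used here.

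The L3 columns summed to between 1490755 and 1717684 FPKM, and steps in the lowest values put the depth at 20.6 to 34.6 fragments per FPKM and kilobase at L3, 13.99 to 19.6 at L1 and 28.0 to 35.3 in embryos. The targeted genes could not test the genotype labels: sex-1 stood at 4.05 to 5.59 FPKM in wild type, 3.79 to 5.71 in the xol-1 strain and 3.36 to 4.16 in the double mutant at L3, and xol-1 was listed at 0 in 10 of 12 L3 libraries. Within each L3 genotype 1 library had ceh-13 at one extreme and egl-5, nob-1 and php-3 at the other. These were wild type replicate 1, with the highest ceh-13 and the lowest values of the 3 posterior genes, and xol-1 replicate 2 and double-mutant replicate 1, each with the lowest ceh-13 and the highest posterior values. Where leaving out 1 of these libraries changed the call of a Hox gene, the values with and without it are given. Tests of the other genes named below are given with all libraries only.

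In wild-type L3 larvae the posterior pair had the highest listed levels. Some other genes, named below, were listed at 0 in every L3 library, so the order between genes is that of listed values only. php-3 averaged 180 ± 12.6 FPKM and nob-1 114.5 ± 11.3, followed by ceh-13 at 56.1 ± 9.11, mab-5 at 46.4 ± 2.33, egl-5 at 21.4 ± 3.50 and lin-39 at 4.83 ± 4.07 (SD, n = 4 each). The ranges of neighbours in this order did not overlap in wild type. The same order held for the group means of xol-1, where no neighbouring ranges overlapped either. In the double mutant the mean of ceh-13 (41.5 ± 6.95) was just under that of mab-5 (42.5 ± 1.64), and their ranges overlapped.

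**Figure D1:**
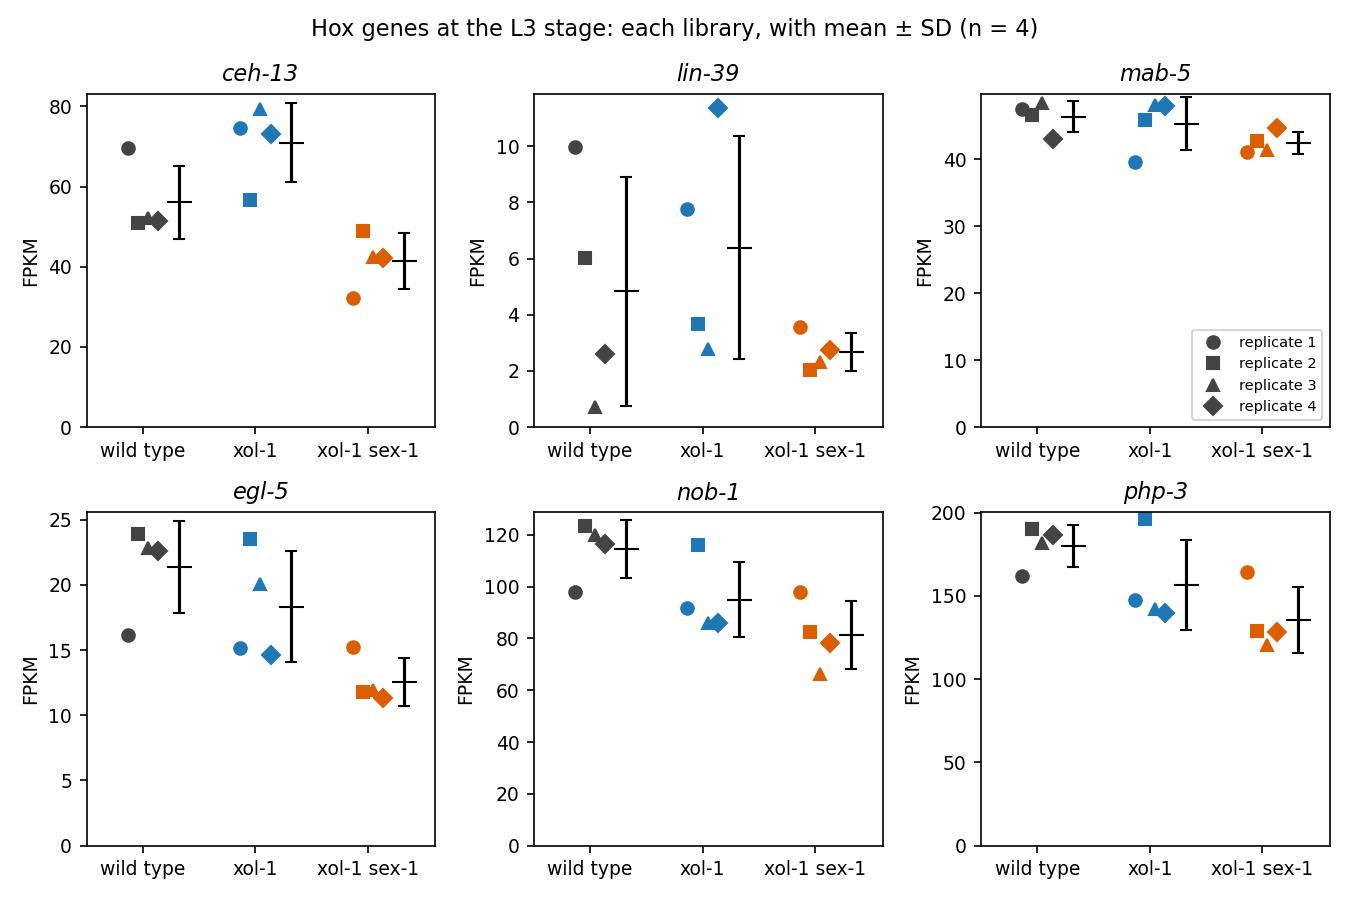
Level of each Hox gene in the 12 L3 libraries, in FPKM on a linear axis that starts at 0 in each panel; symbols are replicates, and the horizontal marks with bars are the group mean and its SD. ceh-13 is lower in all 4 double-mutant libraries than in any other library, and lin-39 varies from 0.733 to 9.98 FPKM among wild-type replicates.

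ceh-13, needed for anterior embryonic patterning and expressed in the ventral nerve cord of larvae, gave the clearest genotype difference. In wild type its level was 69.7, 50.9, 52.1 and 51.5 FPKM in replicates 1 to 4. In xol-1 it was 74.6, 56.6, 79.3 and 73.1 FPKM, and in the double mutant 32.2, 49.0, 42.4 and 42.2 FPKM. Every the double mutant value lay below every value of both other genotypes, whereas wild type and xol-1 overlapped. ceh-13 fell in the double mutant against xol-1 by 0.76 on the log2(FPKM + 1) scale (SE 0.14, limma, Benjamini-Hochberg adjusted over all genes tested, adjusted p = 0.000787). Against wild type it fell by 0.43 (SE 0.14, limma adjusted p = 0.0208). This second call was lost without wild type replicate 1 (limma adjusted p = 0.0638) or without double-mutant replicate 1 (fell by 0.32 on that scale, limma adjusted p = 0.0611). The first was not: without xol-1 replicate 2 ceh-13 fell by 0.87 (limma adjusted p = 0.00034), and without double-mutant replicate 1 by 0.65 (limma adjusted p = 0.00191). Between xol-1 and wild type the estimate was 0.34 (95% interval 0.03 to 0.64), which did not pass (limma adjusted p = 0.0896); it passed when wild type replicate 1 or xol-1 replicate 2 was left out (limma adjusted p = 0.0275 and 0.0264).

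lin-39, the Hox gene that keeps vulval precursor cells from fusing with the epidermis, had the lowest listed level at L3. It was also the most variable member. Its wild-type level was 9.98, 6.02, 0.733 and 2.59 FPKM. In xol-1 it was 7.77, 3.67, 2.78 and 11.3 FPKM, and in the double mutant 3.57, 2.04, 2.33 and 2.75 FPKM. All genotypes overlapped, and the wild-type replicates alone spanned a 13.6-fold range. The coefficient of variation of its level was 84.3% for wild type, 61.9% for xol-1 and 25.01% for the double mutant, against medians of 9.02%, 11.3% and 9.25% over the 13502 tested genes. In wild type 1.33% of tested genes had a larger coefficient of variation than lin-39, in xol-1 2.11% and in the double mutant 12.2%. From the depth steps, the wild-type values stood for about 21.4 to 398 fragments. The share of genes at least this variable in wild type was 1.34% among genes with 1 annotated transcript and 1.31% among those with more. For genes at least as variable as lin-39 in xol-1 the shares were 1.69% and 2.98%, and in the double mutant 9.93% and 16.8%. lin-39 has 2 annotated transcripts. No lin-39 comparison passed: the estimate was -0.87 for the double mutant against xol-1 (95% interval -2.03 to 0.30, limma adjusted p = 0.198), and the interval leaves room for a large change in that direction.

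mab-5, which directs the posterior migration of the left Q neuroblast and patterns the posterior body, was the steadiest member. Its levels were 47.6, 46.6, 48.4 and 43.1 FPKM in wild type and 39.6, 45.9, 48.1 and 48.0 FPKM in xol-1. In the double mutant they were 41.0, 42.8, 41.5 and 44.7 FPKM, inside the range of xol-1 and overlapping that of wild type. Its coefficient of variation, 5.01%, 8.81% and 3.86% in the 3 genotypes, was the lowest of the 6 genes in wild type, xol-1 and the double mutant alike. No comparison passed, and the intervals were narrow: the double mutant differed from xol-1 by -0.09 (95% interval -0.23 to 0.06, limma adjusted p = 0.296; 0.014 with columns rescaled to a common sum) and from wild type by -0.12 (-0.27 to 0.02, limma adjusted p = 0.139). Between xol-1 and wild type the difference was -0.04 (-0.18 to 0.11, limma adjusted p = 0.734).

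egl-5, which patterns the tail and is needed for the fates of posterior neurons and the HSN motor neurons, was lowest in the double mutant. Its level was 16.2, 23.9, 22.8 and 22.6 FPKM in wild type. In xol-1 it was 15.1, 23.5, 20.1 and 14.6 FPKM, and in the double mutant 15.2, 11.8, 11.9 and 11.3 FPKM. All double-mutant values lay below those of wild type, while replicate 1 of the double mutant reached into the xol-1 range. egl-5 fell by 0.72 against wild type on the log2(FPKM + 1) scale (SE 0.16, limma adjusted p = 0.00206) and by 0.50 against xol-1 (SE 0.16, limma adjusted p = 0.0199). The first call held whichever replicate was left out (highest limma adjusted p = 0.00778). The second call was lost without xol-1 replicate 2 or double-mutant replicate 4 (limma adjusted p = 0.0552 in each case), and without xol-1 replicate 3 (0.0576).

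nob-1 and php-3, which act in posterior embryonic patterning, both fell in the double mutant against wild type. nob-1 stood at 98.1, 124, 120.0 and 117 FPKM in wild type, and in xol-1 at 91.8, 116, 85.9 and 85.9 FPKM. In the double mutant it stood at 98.1, 82.5, 66.3 and 78.4 FPKM, where replicate 1 lay just under the lowest wild-type value. php-3 measured 162, 190.1, 182 and 186 FPKM in wild type, then 148, 196, 142 and 139.8 FPKM in xol-1. In the double mutant it measured 164.5, 129, 120.5 and 128 FPKM, with replicate 1 above the lowest wild-type library. nob-1 fell by 0.50 against wild type (SE 0.12, limma adjusted p = 0.00463) and php-3 by 0.42 (SE 0.12, limma adjusted p = 0.00948). Both calls held whichever replicate was left out (highest limma adjusted p = 0.0156 and 0.0312). Neither passed against xol-1, with estimates of -0.22 (95% interval -0.49 to 0.05, limma adjusted p = 0.153) and -0.20 (-0.46 to 0.05, limma adjusted p = 0.170). Without double-mutant replicate 1 both passed, at -0.32 and -0.30 (limma adjusted p = 0.0469 and 0.0412); without xol-1 replicate 2 the estimates were -0.12 and -0.09 (limma adjusted p = 0.397 and 0.473). Between xol-1 and wild type neither passed (limma adjusted p = 0.115 and 0.192), but both did without xol-1 replicate 2, at -0.37 and -0.33 (limma adjusted p = 0.0255 and 0.0221).

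**Figure D2:**
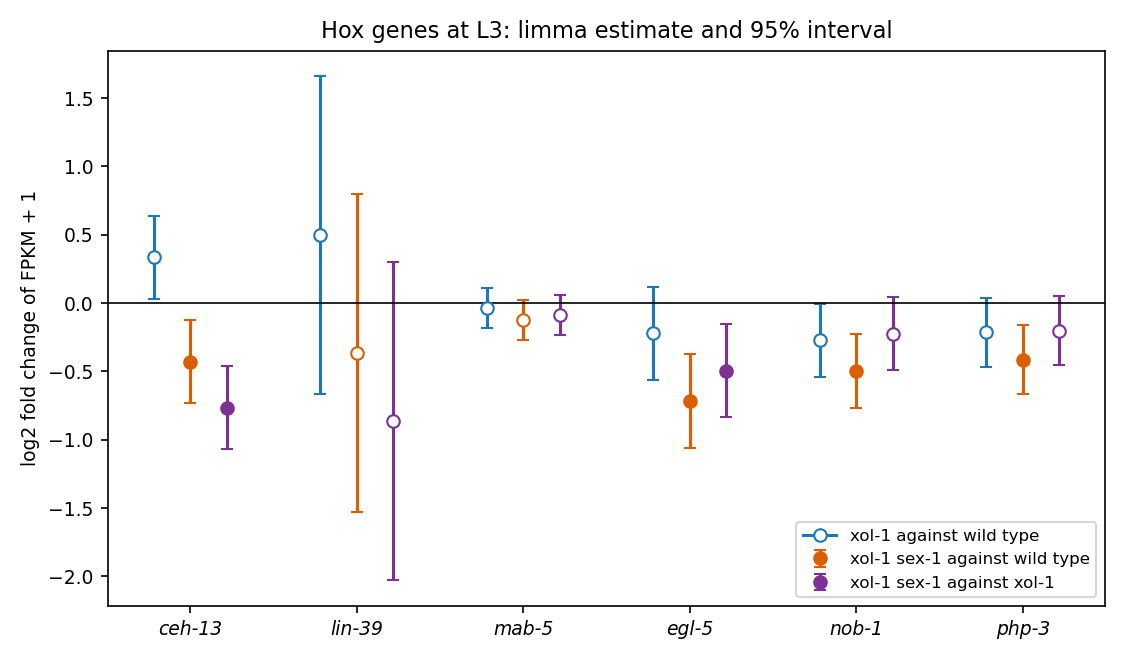
Fold change of each Hox gene in the 3 L3 comparisons, as a difference on the log2(FPKM + 1) scale; bars are the 95% intervals of the limma fit and filled symbols mark an adjusted p-value under 0.05. All 6 estimates lie below 0 for the double mutant against either other genotype (mab-5 against xol-1 turned to 0.014 with columns rescaled to a common sum), and the interval of lin-39 is the widest.

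The counts of members have to be read against a background in which very many genes differed. For the double mutant against xol-1, 2 of 6 members were called, both lower, while 49.2% of tested genes were called, 22.9% higher and 26.3% lower. Of the 6, only ceh-13 had groups that did not overlap, as had 43.3% of tested genes. For xol-1 against wild type, 0 of 6 were called by limma and 2 had an unadjusted p under 0.05 (ceh-13 and nob-1), against 30.7% of all genes called, 16% higher and 14.7% lower. No member had non-overlapping groups there, against 29.6% of tested genes. For the double mutant against wild type, 4 of 6 were called lower, with 53.3% of all genes called, 25.2% higher and 28.1% lower. The groups of 3 members (ceh-13, egl-5 and nob-1) did not overlap, against 49.8% of tested genes. Such calls were therefore common among all genes, and nothing particular to the Hox genes is read from these counts. The 3 comparisons share samples and do not support each other. Rescaling the columns to a common sum moved the share of calls that were higher from 46.6% to 63.4% for the double mutant against xol-1 and from 52.0% to 26.5% for xol-1 against wild type. The median of all genes moved by -0.11 in the second of these, where nob-1 and php-3 then passed at -0.40 and -0.35 (limma adjusted p = 0.0253 and 0.0431). Relative to the median of all genes they stood at -0.29 and -0.23. The other rescaling, which used median ratios of autosomal genes, changed no member's call. It moved the median of all genes by -0.001 for the double mutant against xol-1. For xol-1 against wild type the shift was -0.008, and for the double mutant against wild type -0.009. Under it nob-1 and php-3 stood at -0.28 and -0.22 in xol-1 against wild type (limma adjusted p = 0.107 and 0.177).

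The double-mutant strain also gave the genes across stages. The 3 tables were taken as normalised separately, so levels are set side by side without a test, and the make-up of the 6 genes within a library is the firmer measure. In early embryos ceh-13 led, at 45.8, 53.2 and 74.7 FPKM in replicates 1 to 3. nob-1 followed at 13.4, 17.6 and 20.2 FPKM, then php-3 at 12.6, 13.5 and 13.997 FPKM and mab-5 at 8.39, 10.2 and 14.5 FPKM. The ranges of nob-1, php-3 and mab-5 overlapped with their neighbours in this order. All of ceh-13, nob-1, php-3 and mab-5 were lowest in replicate 1 and highest in replicate 3, unlike lin-39 and egl-5. Over replicates 1 to 3 the summed stage markers described below were 394, 444 and 547 FPKM. Summed germ line markers were 1309, 1245 and 1031 FPKM. The part of developmental age in these embryo library differences was not tested. lin-39 (1.28, 1.66 and 1.19 FPKM) and egl-5 (0.281, 0.738 and 0.459 FPKM) were near the bottom, egl-5 resting on about 12.3 to 40.8 fragments.

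At L1 ceh-13 was still the highest, at 44.5, 42.7, 51.2 and 52.2 FPKM, and php-3 came next at 43.2, 38.6, 39.6 and 37.1 FPKM. mab-5 measured 27.2, 29.4, 23.9 and 27.7 FPKM and nob-1 20.8, 23.3, 22.8 and 24.9 FPKM. The ranges of ceh-13 and php-3 overlapped, as did those of mab-5 and nob-1. lin-39 stood at 4.46, 0.435, 1.23 and 2.34 FPKM and egl-5 at 0.612, 1.96, 1.02 and 0.424 FPKM, again overlapping. egl-5 was thus listed at under 2 FPKM at both early stages, where a floor of 3 fragments corresponds to 0.054 to 0.137 FPKM. In the same genotype at L3 it was listed at 11.3 to 15.2 FPKM. Whether the listed levels of egl-5 or lin-39 miss part of their RNA was not tested.

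**Figure D3:**
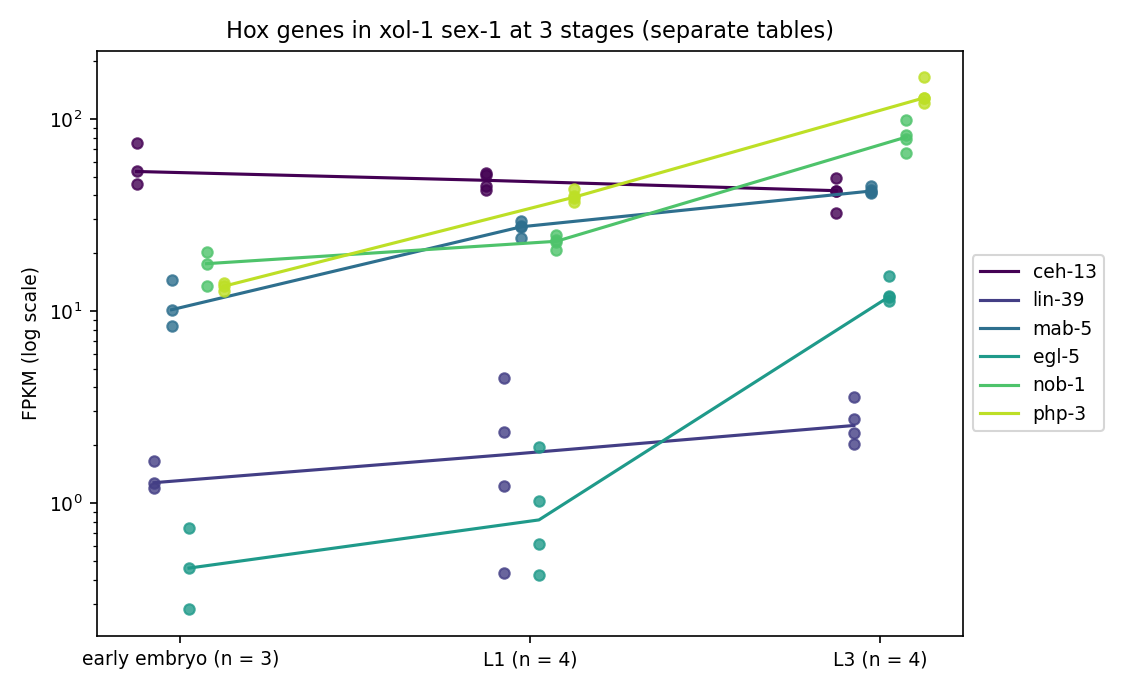
Level of each Hox gene in the double-mutant strain in early embryos, at L1 and at L3, in FPKM on a log axis; points are replicates and lines join the group medians. ceh-13 stays between 32.2 and 74.7 FPKM at all 3 stages, while egl-5 is at most 0.738 FPKM in embryos and at least 11.3 at L3.

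Within a library, the balance between the anterior gene ceh-13 and the posterior gene php-3 differed between stages. ceh-13 made up 55.0% to 59.8% of the summed FPKM of the 6 genes in embryos, 31.3% to 36.6% at L1 and 9.07% to 15.5% at L3 in the double mutant. php-3 made up 11.2% to 15.5%, 25.7% to 30.7% and 40.6% to 46.4% in the same groups. None of these ranges overlapped between stages. The sum itself was 81.8 to 125 FPKM in embryos, 136 to 145 at L1 and 285 to 355 at L3. At L3 the share of ceh-13 was 11.5% to 17.3% in wild type and 12.8% to 21.0% in xol-1, so the genotypes overlapped in this measure.

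**Figure D4:**
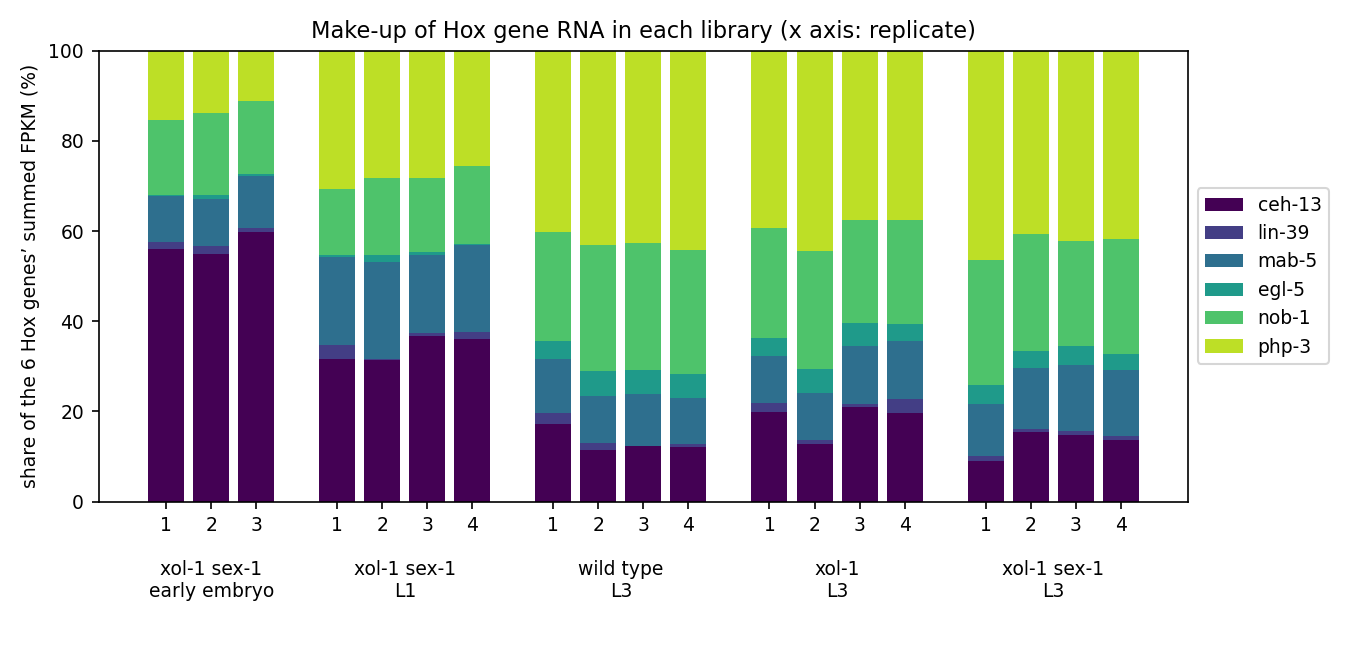
Share of each Hox gene in the summed FPKM of the 6 genes, in percent, for all 19 libraries ordered by group. ceh-13 takes 55.0% to 59.8% in early embryos and at most 21.0% at L3, where php-3 takes 37.5% to 46.4%.

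The adjacent genes php-3 and nob-1 also stood in different ratios at different stages. php-3 over nob-1 was 0.94, 0.76 and 0.69 in the 3 embryo libraries, so nob-1 was the higher in each. At L1 the ratio was 2.08, 1.66, 1.73 and 1.49, and over the 12 L3 libraries it lay between 1.52 and 1.82 with all genotypes overlapping. php-3 was therefore above nob-1 in all 16 larval libraries. The difference between stages was not tested.

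Among L3 libraries the posterior genes varied together. Over the 12 L3 samples, which include the genotype differences and share 1 normalisation, Pearson's r of log2(FPKM + 1) was 0.97 between nob-1 and php-3, 0.90 between egl-5 and php-3 and 0.88 between egl-5 and nob-1. For ceh-13 it was 0.02 with php-3 and 0.06 with nob-1. Some genes outside the Hox genes followed the posterior members more closely than these followed each other. They were haly-1 with php-3 (0.989), amdh-1 with nob-1 (0.978) and ptl-1 with egl-5 (0.973). A likeness this high was thus also found outside the Hox genes, where these genes were picked as the closest of all those tested. How many others came as close was not counted. The part of shared fragments in the r of nob-1 and php-3 was not tested. Within genotypes, the libraries with the highest php-3 were those with the lowest ceh-13: php-3 over ceh-13 was 5.11 in double-mutant replicate 1 and 2.63 to 3.03 in the others of that group. In xol-1 it was 3.47 in replicate 2 and 1.79 to 1.98 in the others, and in wild type 2.32 in replicate 1 and 3.49 to 3.73 in the others. This order of libraries was noticed after the values were seen. The placing of these 3 libraries at the extremes that php-3 shows was found in 1188 of 13502 tested genes (8.8%), and the placing that ceh-13 shows in 1144 (8.47%). Of the 12 tested stage markers, 1 had the placing of php-3 (lin-14, a heterochronic gene of early larval stages) and 0 that of ceh-13; of the 39 other tested markers, 3 had the first (egl-3, nhr-25 and zmp-1) and 6 the second. Taken library by library, the stage markers did not all lie to one side. Wild type replicate 1 had the highest value of its group for 5 of the 12, among them mlt-10, a moulting gene, at 211 FPKM against 137 to 159.6 in the others, and the lowest for 3, among them lin-14 at 100 FPKM against 108 to 116. In xol-1, replicate 2 had the highest value for 8 and the lowest for 0. Double-mutant replicate 1 had the highest for 2 and the lowest for 4. The part of developmental age in these library differences was not tested.

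**Figure D5:**
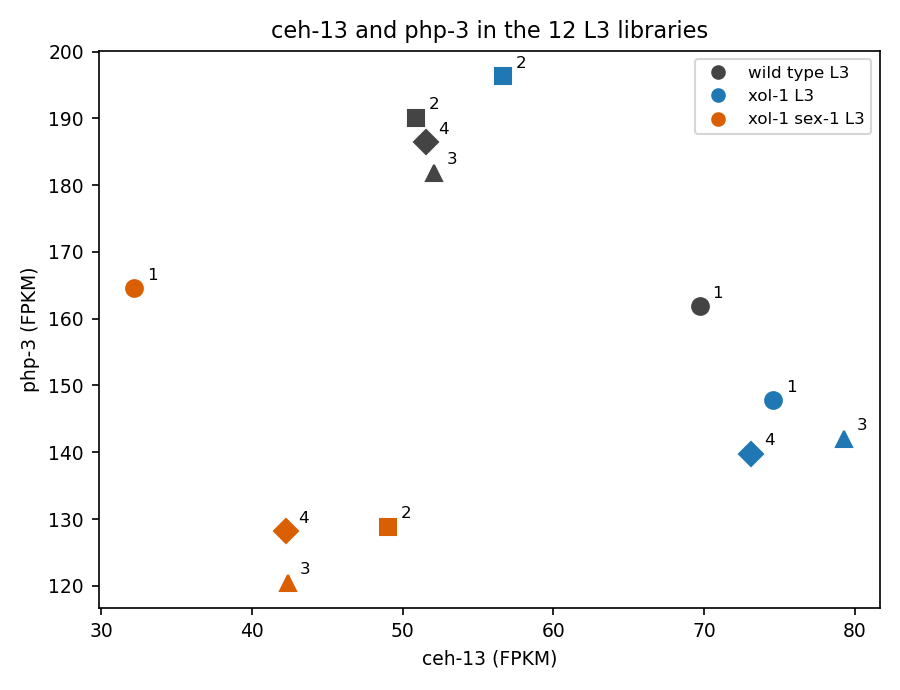
ceh-13 against php-3 in the 12 L3 libraries, both in FPKM on linear axes, neither starting at 0, with genotypes by colour and replicates by symbol and number. In each genotype 1 library stands apart, wild type replicate 1 towards low php-3 and high ceh-13, xol-1 replicate 2 and double-mutant replicate 1 towards high php-3 and low ceh-13.

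Markers of other tissues and of developmental stage differed between the same groups. Of all tested genes, limma called 49.2% for the double mutant against xol-1 and 30.7% for xol-1 against wild type. For the double mutant against wild type it called 53.3%. No marker list was tested for an excess over these shares. Between the double mutant and xol-1, limma called 5 of 5 intestine markers, 4 of 6 muscle markers, 3 of 4 germ line markers and 7 of 12 stage markers higher in the double mutant. It called 3 of 8 neuron markers and 1 muscle marker lower, 1 neuron marker higher and 0 of 7 epidermis markers. For xol-1 against wild type, 8 of 12 stage, 4 of 7 epidermis and 1 of 8 neuron markers were lower, and 2 of 5 intestine, 2 of 4 germ line and 1 of 6 muscle markers higher. For the double mutant against wild type, 5 of 5 intestine, 5 of 6 muscle, 3 of 4 germ line and 2 of 8 neuron markers were higher, while 4 of 8 neuron, 4 of 7 epidermis and 5 of 12 stage markers were lower. Summed over each list, intestine markers ranged over 767 to 863 FPKM in wild type, 954 to 1205 in the xol-1 strain and 1305 to 1541 in the double mutant. Muscle markers summed to 1290 to 1479, 1436 to 1786 and 1797 to 2194 FPKM, and stage markers to 1514 to 1799, 930 to 1224 and 1398 to 1524 FPKM. Such sums rest largely on a few genes. unc-27 averaged 886 FPKM in xol-1 against 610 in wild type, beside 284 against 290 for unc-54 and 103 against 109 for myo-3. In wild type mlt-8 (633) and noah-2 (329) were the highest stage markers. The stage list mixes heterochronic genes such as lin-14 with moulting genes such as mlt-10, so its sum gives no direction in age. Neuron markers summed to 964 to 1023, 828 to 995 and 911 to 1004 FPKM, and epidermis markers to 477 to 599, 349 to 422 and 369 to 409. Germ line markers summed to 6.39 to 10.5, 9.45 to 14.2 and 22.7 to 28.6 FPKM. Vulva and somatic gonad markers summed to 90.7 to 107, 71.3 to 87.7 and 69.7 to 81.3 FPKM, with 1 higher and 1 lower of 6 called in the first comparison and 3 lower in each of the others. Of the 3 tested male markers 1 was lower in the double mutant than in xol-1 and no other call was made. The other 5 were too low to test: dmd-3, her-1 and lov-1 reached at most 0.309, 0.293 and 0.0262 FPKM in any L3 library, and cwp-1 ranged from 0.170 to 2.85 FPKM in wild type, 0.378 to 0.886 in the xol-1 strain and 0.395 to 0.988 in the double mutant. pkd-2 stood at 0.0242 to 0.0810 FPKM in wild type, below its 0.184 to 0.292 in the xol-1 strain and its 0.195 to 0.365 in the double mutant. elt-3 of the epidermis list was listed at 0 in all 12 L3 libraries, and at 11.6 to 18.5 FPKM at L1. The part of tissue make-up and stage in the differences of the Hox genes was not tested.

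Genes that act with, above or below Hox genes were taken from 7 lists of 85 genes, of which 72 were tested. Against xol-1, 16 of them were higher in the double mutant and 13 were lower (40.3% called, median 0.01 against -0.02 for all genes). For xol-1 against wild type 5 were higher and 17 lower (30.6%, median -0.11 against 0.00). For the double mutant against wild type 8 were higher and 20 lower (38.9%, median -0.03 against -0.03). Each of these shares was below that of all tested genes in the same comparison (49.2%, 30.7% and 53.3%). The counts of single lists below have the same background, and no list was tested for an excess over it. Among the untested genes, ash-2, egl-27, jmjd-3.1 and dsh-1 were listed at 0 in every L3 library; since ash-2 is used by most cells, a listed 0 is not read as absence.

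Of the 5 cofactors, 3 were tested. unc-62, the MEIS-type partner, had 0 to 2.39 FPKM and ceh-40 at most 0.936. These low values are not read as absence either. In the muscle list unc-22 reached at most 0.0608 FPKM at L3, beside a wild-type mean of 290 for unc-54. ceh-20, the main PBC-type partner of worm Hox proteins, averaged 209 ± 4.87 FPKM in wild type, 192 ± 8.48 in the xol-1 strain and 158 ± 11.3 in the double mutant. It fell in the double mutant against xol-1 by 0.27 (limma adjusted p = 0.00208) and against wild type by 0.40 (limma adjusted p = 0.000106), with no overlap in either case. psa-3, another MEIS-type gene, fell from 35.9 ± 2.21 FPKM in wild type to 25.8 ± 3.49 in xol-1 (limma adjusted p = 0.000973) and 25.8 ± 0.813 in the double mutant (limma adjusted p = 0.000571). ceh-60, a PBC-type gene, rose from 2.44 ± 0.328 to 3.34 ± 0.273 FPKM between wild type and xol-1 (limma adjusted p = 0.0210).

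Of the 10 tested Polycomb-type and other repressors, 5 rose and 1 fell in the double mutant against xol-1. Of all tested genes, 22.9% were called higher and 26.3% lower in this comparison. The largest rises among the 10 were in spat-3, a RING-type component, from 17.4 ± 2.04 to 22.5 ± 1.07 FPKM (0.36, limma adjusted p = 0.00282), and let-418, a Mi-2 chromatin remodeller, from 62.9 ± 6.89 to 79.0 ± 1.66 FPKM (0.33, limma adjusted p = 0.00245). mes-3, a partner of the H3K27 methyltransferase, rose from 11.5 ± 0.800 to 14.1 ± 1.52 FPKM (limma adjusted p = 0.0231), and sor-1 from 29.3 ± 3.50 to 35.3 ± 2.72 FPKM (limma adjusted p = 0.0300). Against wild type 2 of the 10 rose and 1 fell in the double mutant: mes-2, the methyltransferase itself, rose from 11.7 ± 0.372 to 15.1 ± 0.553 FPKM (limma adjusted p = 0.00148), let-418 rose too, and sor-3 fell from 31.4 ± 1.25 to 26.3 ± 1.53 FPKM (limma adjusted p = 0.00195). Between xol-1 and wild type mes-2 rose and sor-1 fell. Of 5 tested trithorax-type genes, lin-59, an ASH1-type gene, was higher in the double mutant than in xol-1 (92.4 ± 6.38 against 71.8 ± 8.72 FPKM, limma adjusted p = 0.00263) and wdr-5.1, a COMPASS subunit, lower (64.8 ± 4.96 against 80.1 ± 1.76 FPKM, limma adjusted p = 0.00201). In xol-1 against wild type lin-59 fell and wdr-5.1 rose. For the double mutant against wild type limma called 0 of the 5, and 0 had an unadjusted p under 0.05.

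Of 27 tested Wnt and Ras genes, 7 rose and 3 fell in the double mutant against xol-1, 1 rose and 7 fell in xol-1 against wild type, and 3 rose and 6 fell in the double mutant against wild type. mig-1, a Frizzled receptor for the Wnt ligand EGL-20, averaged 1.71 ± 0.374 FPKM in wild type, 3.07 ± 0.716 in the xol-1 strain and 5.33 ± 1.05 in the double mutant, where it rose by 1.22 against wild type (SE 0.16, limma adjusted p = 4.57e-05). lin-44, a Wnt ligand made in the tail, fell from 134 ± 11.3 FPKM in wild type to 76.0 ± 13.04 in the double mutant (limma adjusted p = 0.000192). mek-2, the MAP kinase kinase of the Ras pathway, fell from 118.9 ± 1.22 FPKM to 75.3 ± 2.80 in xol-1 (limma adjusted p = 2.38e-06) and 73.8 ± 1.88 in the double mutant (limma adjusted p = 2.77e-07). lit-1, a Nemo-like kinase, averaged 4.99 ± 1.18 FPKM in wild type, 2.13 ± 0.850 in the xol-1 strain and 4.35 ± 1.93 in the double mutant; it fell in xol-1 against wild type and was higher in the double mutant than in xol-1 (limma adjusted p = 0.0118 and 0.0247). The same held for the Wnt ligand mom-2 (3.25 ± 0.453, 2.08 ± 0.393 and 3.62 ± 0.556 FPKM; limma adjusted p = 0.0141 and 0.00234) and for sys-1, a beta-catenin (10.04 ± 0.411, 8.35 ± 1.09 and 11.7 ± 0.548 FPKM; 0.0453 and 0.000951). lin-31, a vulval transcription factor under Ras control, fell from 24.6 ± 0.613 FPKM in wild type to 17.02 ± 0.572 in the double mutant (limma adjusted p = 0.000288).

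Of 4 tested transcription factors reported to act above Hox genes, none rose in any comparison and 2, 2 and 3 fell in the 3 comparisons in the same order. vab-7, the even-skipped-type gene of the posterior, averaged 69.2 ± 6.59 FPKM in wild type, 57.9 ± 5.84 in the xol-1 strain and 41.0 ± 6.56 in the double mutant, a fall of 0.50 against xol-1 (limma adjusted p = 0.00219) and of 0.75 against wild type (limma adjusted p = 8.83e-05). lin-22, a Hairy-type gene that limits Hox expression in the seam, was lower in the double mutant than in xol-1 (5.24 ± 1.15 against 9.07 ± 1.53 FPKM, limma adjusted p = 0.00291). sem-4, a Spalt-type zinc-finger gene, fell from 283 ± 20.8 FPKM in wild type to 228 ± 37.1 in xol-1 (limma adjusted p = 0.0427) and 193 ± 21.7 in the double mutant (limma adjusted p = 0.00106). nhr-25, a nuclear receptor of the epidermis, fell from 85.9 ± 5.29 FPKM to 72.3 ± 8.59 (limma adjusted p = 0.0295) and 67.0 ± 2.85 (limma adjusted p = 0.00236).

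All 11 genes reported to respond to Hox proteins were tested, and 3 rose and 2 fell in the double mutant against xol-1, 0 rose and 4 fell in xol-1 against wild type, and 1 rose and 4 fell in the double mutant against wild type. egl-1, the BH3-only trigger of programmed cell death, averaged 5.24 ± 0.530 FPKM in wild type, 3.61 ± 0.538 in the xol-1 strain and 8.87 ± 1.66 in the double mutant, with no overlap between any of the 3 genotypes. It rose in the double mutant by 1.09 against xol-1 (SE 0.13, limma adjusted p = 3.27e-05) and by 0.65 against wild type (limma adjusted p = 0.00103), and fell in xol-1 against wild type (limma adjusted p = 0.0211). lin-12, a Notch receptor of the vulva, fell from 12.2 ± 1.07 FPKM in wild type to 7.88 ± 0.835 in xol-1 (limma adjusted p = 0.000295) and 8.32 ± 0.326 in the double mutant (limma adjusted p = 0.000357). mec-3, the homeobox gene of touch neurons, fell from 20.9 ± 1.61 FPKM to 14.9 ± 2.40 (limma adjusted p = 0.00323) and 13.4 ± 1.04 (limma adjusted p = 0.000255). mab-20, a semaphorin, fell from 42.1 ± 1.67 to 30.9 ± 3.85 FPKM between wild type and xol-1 (limma adjusted p = 0.00144). eff-1, the fusogen of epidermal cells, and cdk-4, a G1 kinase, were lower in the double mutant than in xol-1 (20.01 ± 1.898 against 24.8 ± 1.51 FPKM and 15.9 ± 1.43 against 18.9 ± 1.27 FPKM; limma adjusted p = 0.00682 and 0.0261). cye-1, cyclin E, was higher there (4.52 ± 0.809 against 2.96 ± 0.811 FPKM, limma adjusted p = 0.0155).

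Of 13 tested homeobox genes of related classes, 0 rose and 4 fell in the double mutant against xol-1, 1 rose and 1 fell in xol-1 against wild type, and 2 rose and 5 fell in the double mutant against wild type. ceh-23, which lies 22.5 kb from egl-5, rose from 3.97 ± 1.87 FPKM in wild type to 7.44 ± 2.13 in xol-1 (0.82, limma adjusted p = 0.0307) and 10.1 ± 1.66 in the double mutant (1.23, limma adjusted p = 0.00160). vab-15, an Msx-type gene, fell from 22.7 ± 0.970 FPKM in wild type to 18.2 ± 1.29 in xol-1 and 15.2 ± 1.83 in the double mutant (limma adjusted p = 0.0129 and 0.000118). cog-1, a Gtx/Nkx-type gene, fell from 25.5 ± 3.39 FPKM in wild type to 16.9 ± 2.40 in the double mutant (limma adjusted p = 0.00140). ceh-12, an HB9-type gene, was lower in the double mutant than in xol-1 (3.34 ± 0.603 against 4.76 ± 1.06 FPKM, limma adjusted p = 0.0489).

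Around the Hox loci, 60 other genes begin within 50 kb of a member and 48 were tested. For the double mutant against xol-1, 8 were higher and 14 lower (45.8%), for xol-1 against wild type 14 and 4 (37.5%), and for the double mutant against wild type 17 and 10 (56.3%), beside 49.2%, 30.7% and 53.3% of all tested genes. ttr-32, a transthyretin-like gene 8.37 kb from ceh-13, fell from 150.2 ± 5.80 FPKM in xol-1 to 61.6 ± 8.09 in the double mutant (-1.28, SE 0.09, limma adjusted p = 5.95e-07). cyk-7, between mab-5 and egl-5, was low but rose from 0.962 ± 0.111 FPKM in wild type to 1.68 ± 0.441 in xol-1 (limma adjusted p = 0.0218) and 2.24 ± 0.227 in the double mutant (limma adjusted p = 0.000479). mab-5 beside it passed no comparison. egl-5 on its other side fell in the double mutant, but was not called for xol-1 against wild type (-0.22, limma adjusted p = 0.318).

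For each member, the genes outside the Hox genes with the most similar pattern over the 12 L3 samples were found by Pearson's r of log2(FPKM + 1), given as a description. For ceh-13 they were glt-3, a glutamate transporter gene on chromosome IV, and nlp-16, a neuropeptide gene on IV, each at 0.99. For php-3 they were haly-1 (0.99) and zig-6 (0.98), both on X, and for nob-1 amdh-1 on III (0.98) and uroc-1 on IV (0.97). For egl-5 they were ptl-1 on III, a tau-type microtubule-binding protein, at 0.97, and mec-9 on V, a touch-neuron gene, at 0.96. The values were lower for mab-5 (C15C8.7 on V and C12D12.3 on X, each at 0.86) and lowest for lin-39 (hira-1 on III at 0.83 and sto-3 on X at 0.81).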

How the data were processed

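Per the labels' protocols, libraries were made from poly(A) RNA by random priming with a strand-keeping kit. The authors deposited FPKM values in 3 tables, 1 per stage; per the submitters' processing notes cutadapt 2.3, FastQC 0.11.8, Salmon 1.9.0, DESeq2 1.42.0 and WBcel235 were used, in roles not given in the sources used here. Of 32 columns, 13 match no sample of this series and were not used. Positions and transcript counts came from Ensembl release 115. The rest was computed here: in R 4.3.3, limma 3.58.1 with statmod 1.5.0 was fitted to log2(FPKM + 1), using trended and robust eBayes, for the 13502 genes that averaged 1 FPKM or more in the 12 L3 samples, which share 1 spread, two-sided, with Benjamini-Hochberg adjustment over all of them and a threshold of 0.05. Fold changes on this scale understate changes of low genes. Total fragments are unknown; the step between the lowest values of genes with 1 transcript of at least 1000 bases gave the fragments per FPKM and a floor of 3 fragments, which cover counting error only. Python 3.11.15, numpy 2.4.6, pandas 2.3.3, scipy 1.17.1 and matplotlib 3.10.9 did the rest, and the fit was tested on simulated data.

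The members and lists were chosen with earlier results of these data known. The genes named are the 6 members, up to 4 called genes of each list and comparison with the largest change, the 2 most similar genes per member and the neighbour with the largest called change; sex-1, xol-1, lin-14, mlt-10, cyk-7, the other single markers and the untested genes were named after their values were seen. Of 66 marker genes 65 matched the tables. Only 2 of 12 same-number pairs of L3 samples deviated together with a correlation over 0.1, so replicate numbers were not taken as pairs. Between wild type and xol-1 these correlations ran from 0.033 to 0.244 (mean 0.10), beside a mean of -0.03 for different numbers. Their mean was -0.03 between wild type and the double mutant and 0.02 between xol-1 and the double mutant. Pairing is therefore not excluded. Alternatives were other pseudocounts (0.1, 0.5), other filters (none, or an average of 5 FPKM or more), 2 rescalings, the compared groups alone, eBayes without trend and robust, a replicate block, a 1.5-fold threshold and leaving out each replicate.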

Additional observations from a re-analysis of the deposited data

Results flagged for a closer look

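Of 162 sets of a named gene in a group of 4 samples, 12 held 1 sample whose gap to the nearest other exceeded Dixon's 95% critical value, and 4 of these were among the 24 sets of the Hox genes. Chance gives about 1 in 20, and over all tested genes the share at L3 was 5.43% for wild type, 5.41% for xol-1 and 5.62% for the double mutant. The sets are not independent, since they share libraries and since nlp-16, zig-6, mec-9 and sto-3 were named for following a Hox gene over these samples, so no excess is read from these counts. For the Hox genes these were ceh-13 in wild type L3 replicate 1 (69.7 FPKM, others 50.9 to 52.1), egl-5 in wild type L3 replicate 1 (16.2, others 22.6 to 23.9), egl-5 in double-mutant L3 replicate 1 (15.2, others 11.3 to 11.9) and php-3 in xol-1 L3 replicate 2 (196 FPKM, others 139.8 to 148). Double-mutant L3 replicate 1 also stood apart for cye-1 (3.32 FPKM), lin-44 (95.4), mec-9 (32.3) and mes-3 (16.4). Wild type L3 replicate 1 stood apart for nlp-16 (36.0 FPKM) and replicate 4 for mek-2 (121), xol-1 replicate 2 for zig-6 (130.2) and double-mutant replicate 4 for sto-3 (1.67).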

How the results depend on the processing

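Of the alternative values of the 6 members at L3, 358 kept their direction and their side of the threshold, 6 lost it, 8 passed and 3 changed sign. With columns rescaled to a common sum, 1 member was called for the double mutant against xol-1 (egl-5 was lost at -0.38, limma adjusted p = 0.0634) and 2 for xol-1 against wild type, and mab-5 for the double mutant against xol-1 changed sign to 0.014. With an added 1.5-fold threshold, 1 member was called for the double mutant against xol-1 and 1 against wild type; of the listed pathway genes 4, 3 (xol-1 against wild type) and 7 were called, and of all genes 2010, 1180 and 2481. Leaving out 1 replicate gave 1 to 4, 0 to 3 and 3 to 4 called members for the double mutant against xol-1, xol-1 against wild type and the double mutant against wild type. For the pathway genes it gave 21 to 28, 11 to 24 and 24 to 30. mab-5 in xol-1 against wild type ranged from -0.0695 to 0.0278, and lin-39 in the double mutant against wild type from -0.846 to 0.0421 (above 0 only without wild type replicate 1; for mab-5, only without xol-1 replicate 1). lin-39, with a lower average, has no value under the 5 FPKM filter. The replicate block, in which numbers are taken as pairs, called 2, 0 and 4 members and 6538, 4004 and 7081 genes, and changed no member's call. The causes were not tested. Depth limits egl-5 at L1, where its values stood for about 9.28 to 60.4 fragments, and in embryos.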
